A study of Mus musculus with 26 samples.

Results

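This account covers ADAMTS proteases, the secreted metalloproteinases with thrombospondin motifs, in mouse neural stem and progenitor cell cultures with and without SOX2 that were or were not exposed to a glucocorticoid. The list holds 10 genes, Adamts1, Adamts2, Adamts3, Adamts4, Adamts5, Adamts6, Adamts9, Adamts10, Adamts12 and Adamts20, and 9 of them were measured among 19505 genes. Adamts2, which trims fibrillar procollagens, is not analysed here. Each of the 9 had 1 transcript cluster on the array, so no choice between transcript clusters was needed. The 10 genes were picked by name with the levels, the dexamethasone effects and the genotype effects of these arrays already known. The adjusted p-values below therefore place each gene within a fit over all 19505 genes and are no independent evidence. The other 9 ADAMTS genes, which were all measured, are set beside them.

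The samples form 4 groups: SOX2 knockout (KO) cultures treated with dexamethasone (Dex), SOX2 KO cultures given vehicle, wild-type (WT) cultures treated with Dex, and WT cultures given vehicle. All were cortical cultures of C57BL/6 telencephalon, labelled both as fetal and as postnatal day 0, grown with EGF and FGF-1, with a separate culture for each animal. Dex, a synthetic agonist of the glucocorticoid receptor, was added at 100 nM for 4 h after the third passage, and the vehicle was ethanol. There were 7 SOX2 KO cultures, numbered 7 to 13, and 6 WT cultures, numbered 1 to 6. Every culture gave 1 Dex and 1 vehicle array, 26 in all. The sex behind an array is not given in the labels, and neither is how, or in which cells, Sox2 was removed.

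ADAMTS enzymes are zinc proteases that are made as inactive precursors, trimmed by furin-like convertases and released into the extracellular matrix. There they cut proteoglycans, procollagens and other matrix proteins. In the brain their best known substrates are the hyaluronan-binding proteoglycans versican, brevican, neurocan and aggrecan, which fill the space around progenitors and later form nets around neurons. TIMP3 is their main tissue inhibitor.

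Values are the deposited ones. They are taken as log2 units from their range, because the sources used here give no logarithm base and no normalization. Sox2, the targeted gene, averaged 4.79 ± 0.89 in SOX2 KO Dex, 4.65 ± 0.51 in SOX2 KO vehicle, 12.96 ± 0.56 in WT Dex and 13.40 ± 0.70 in WT vehicle arrays (SD, n = 7, 7, 6 and 6). Array medians ran from 6.44 to 6.84. Of the 10 neural stem and progenitor markers, 9 were measured. Sox2, far lower in SOX2 KO, is among these 9 and adds to any gap in their mean between genotypes. A mean without Sox2 was not computed, so a change of the other markers cannot be read from it. The mean level of the 9, Sox2 included, was 11.42 to 12.22 on the SOX2 KO arrays and 12.33 to 13.27 on the WT arrays. Over all arrays the same mean was 10.82 to 13.48 for 4 of 6 oligodendrocyte markers, 9.27 to 11.88 for 5 of 5 astrocyte markers and 8.01 to 9.69 for 5 of 5 neuronal markers. It was 5.15 to 6.32 for 8 of 8 fibroblast and mural cell markers, 4.70 to 5.56 for 5 of 5 endothelial markers and 3.89 to 5.08 for 5 of 5 microglial markers. Among the astrocyte markers, 1 of 5 passed the test between genotypes, beside 0.564% of all genes in Dex and 0.559% in vehicle. The marker that passed was Aldoc, a glycolytic enzyme, which was lower in SOX2 KO. Its log2 fold changes were -1.40 ± 0.22 in Dex and -1.71 ± 0.22 in vehicle (SE), and -1.37 and -1.53 without culture 4. The part of Aldoc in the results below was not tested. The other astrocyte markers did not pass, and Gfap and Aqp4 differed in sign between the array clusters described next. The cultures were also clustered by their profiles over all genes, after group means were removed and the 2 arrays of each culture averaged. The tree was cut at a set number of 3 groups, for which no label accounts and which are called array clusters here. Cultures 7, 8, 1, 2 and 3 are in the first, 10, 12 and 4 in the second, and 9, 11, 13, 5 and 6 in the third. In bulk cultures, fewer cells of a type and less RNA per cell cannot be told apart.

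WT culture 4 went against its labels. Fam107a, a strongly glucocorticoid-induced gene, was 6.83 log2 units lower on its Dex array than on its vehicle array, at 5.68 against 12.51. In the other 12 cultures Fam107a was higher with Dex, by 3.99 to 5.00 in SOX2 KO and by 4.61 to 5.76 in WT. Per1, a clock gene, and Fkbp5, a co-chaperone of the receptor, were also turned round in culture 4, with Dex minus vehicle differences of -2.74 and -2.03. Results that use WT arrays are therefore given with culture 4 and, as values "without culture 4", from the same fit after both its arrays were dropped.

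Dex raised 1 of the 9 genes in SOX2 KO cultures, Adamts9, which encodes a conserved protease that cuts versican and is needed for mouse development. Over all genes 0.0513% passed the same threshold, an adjusted p under 0.05 (limma, Benjamini-Hochberg over 19505 genes), and all of those were higher. The count in SOX2 KO was also 1 with the culture as a block, where 0.0718% of all genes passed, without culture 4, where 0.082% did, and with array cluster as a covariate, where 0.128% did. None of the 9 passed in WT, where 0% of all genes passed, nor did any without culture 4, where 0.0359% did. In a fit that blocked on culture and dropped culture 4, which is called the paired fit below, 0.251% of all genes passed in SOX2 KO and 0.169% in WT. Of these, 0.0154% in SOX2 KO and 0.0103% in WT were lower, and none of the 9 was among the lower ones. The median log2 fold change of the 9 was -0.04 in SOX2 KO and -0.04 in WT, beside -0.02 and 0.00 over all genes.

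Adamts9 stood at 11.43, 11.75, 11.42, 11.00, 11.00, 9.96 and 11.70 on the Dex arrays of SOX2 KO cultures 7 to 13. The vehicle arrays of the same cultures stood at 10.00, 9.92, 9.50, 9.88, 9.93, 9.56 and 9.38. Dex was higher in all 7 pairs, and only the Dex array of culture 12 fell inside the vehicle range. Over all genes, 1.01% were higher with Dex in every SOX2 KO culture. In WT cultures 1 to 6 Adamts9 stood at 11.08, 11.63, 12.32, 10.05, 11.14 and 12.14 on the arrays labelled Dex. Their vehicle arrays stood at 10.64, 10.80, 10.88, 10.96, 10.09 and 10.82. Dex was higher in 5 of 6 pairs, and the exception was culture 4, whose vehicle array was the highest of the WT vehicle arrays and whose array labelled Dex was the lowest of the WT Dex arrays.

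**Figure D1:**
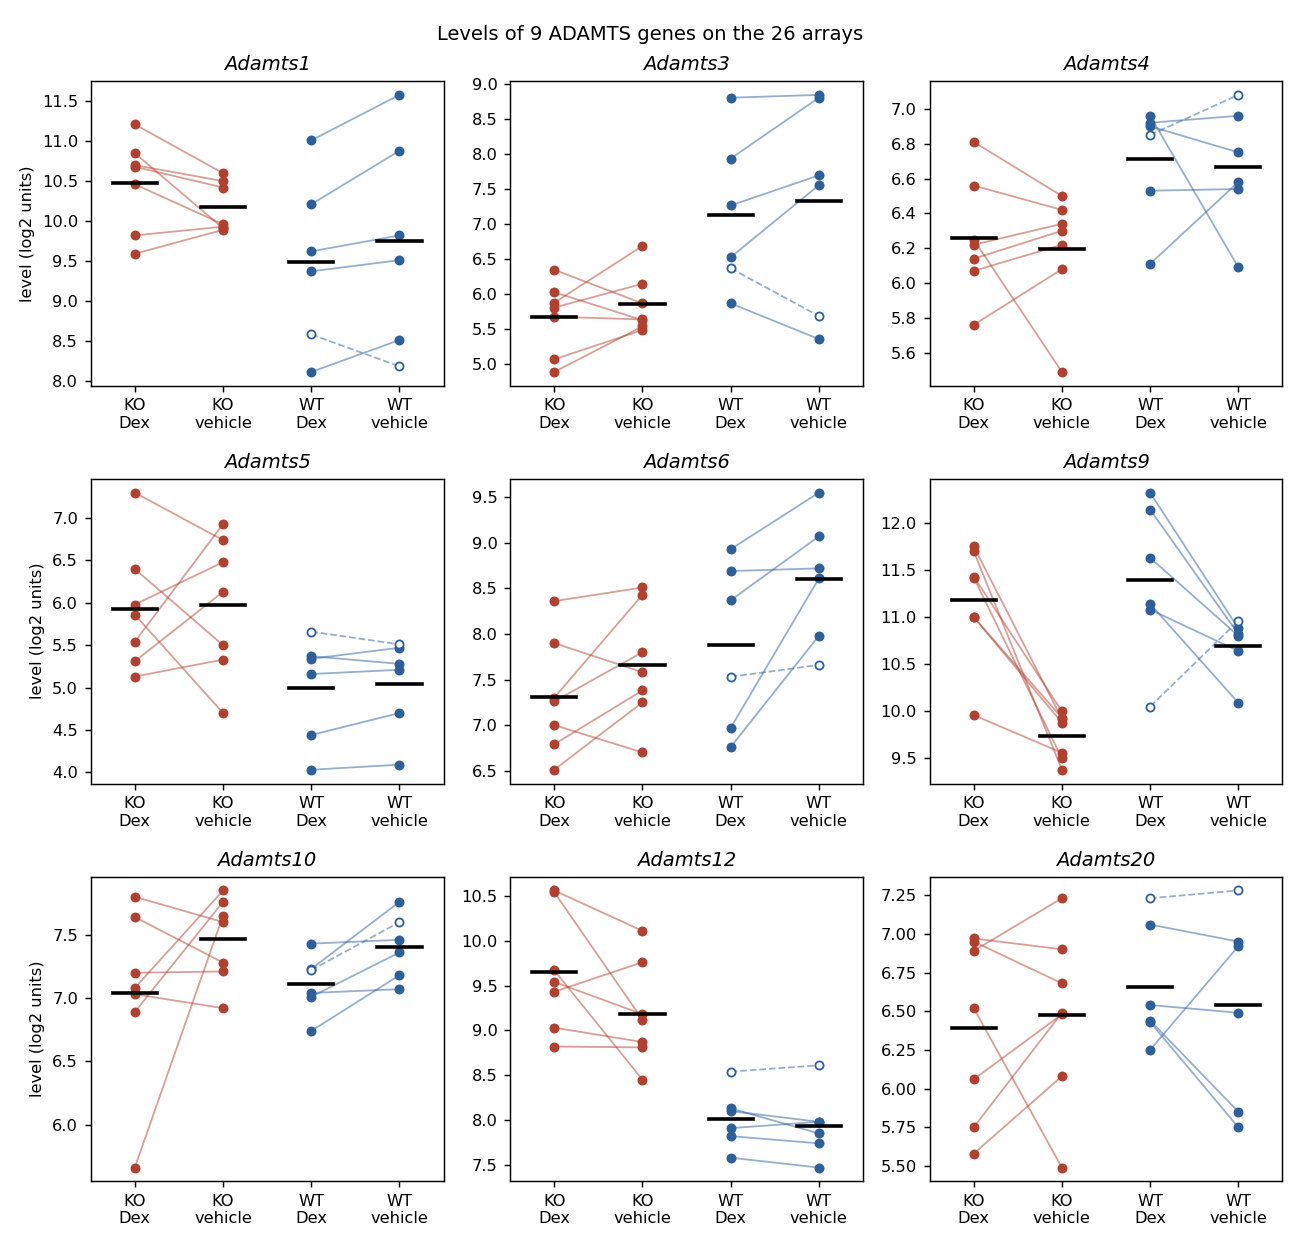
Levels of the 9 measured ADAMTS genes (y axis, log2 units, with a scale of its own in each panel) in SOX2 KO Dex, SOX2 KO vehicle, WT Dex and WT vehicle arrays. Each line joins the 2 arrays of 1 culture, open circles and dashed lines mark WT culture 4, and black bars are group means. Adamts9 falls along all 7 SOX2 KO lines read from Dex to vehicle, and Adamts12 lies higher in SOX2 KO than in WT.

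The mean Adamts9 level was 11.18 ± 0.61 in SOX2 KO Dex arrays and 9.74 ± 0.25 in SOX2 KO vehicle arrays (SD, n = 7 each). The log2 fold change was 1.44 ± 0.28 (SE), with an adjusted p of 0.0296 in the limma fit of 4 group means. In the paired fit the SE was 0.19 and the adjusted p was 0.0011 (limma). The WT means were 11.39 ± 0.83 on arrays labelled Dex and 10.70 ± 0.32 on vehicle arrays (SD, n = 6 each), a log2 fold change of 0.695 ± 0.30 with an adjusted p of 1 (limma). Without culture 4 they were 11.66 ± 0.56 and 10.65 ± 0.32 (SD, n = 5 each), and the log2 fold change was 1.02 ± 0.23 with an adjusted p of 0.16 (limma, paired fit). The 5 remaining WT differences ran from 0.44 to 1.44, and the 7 SOX2 KO differences from 0.40 to 2.32. Over all genes, 5.03% were higher with Dex in each of those 5 WT cultures.

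The SOX2 KO call for Adamts9 was not stable in the 4-group fit when single cultures were left out. It was lost when any 1 of cultures 7, 8, 9, 10, 11, 13, 1 or 2 was left out, with adjusted p-values from 0.0548 to 0.344 (limma), while the log2 fold change was at least 1.295 without any 1 culture. In the paired fit it held when any other culture was also left out, with adjusted p-values from 8.19e-05 to 0.00776, an alternative chosen after seeing the data. In WT the same fit called Adamts9 only when SOX2 KO culture 12 was also left out, at an adjusted p of 0.0246 (limma).

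**Figure D2:**
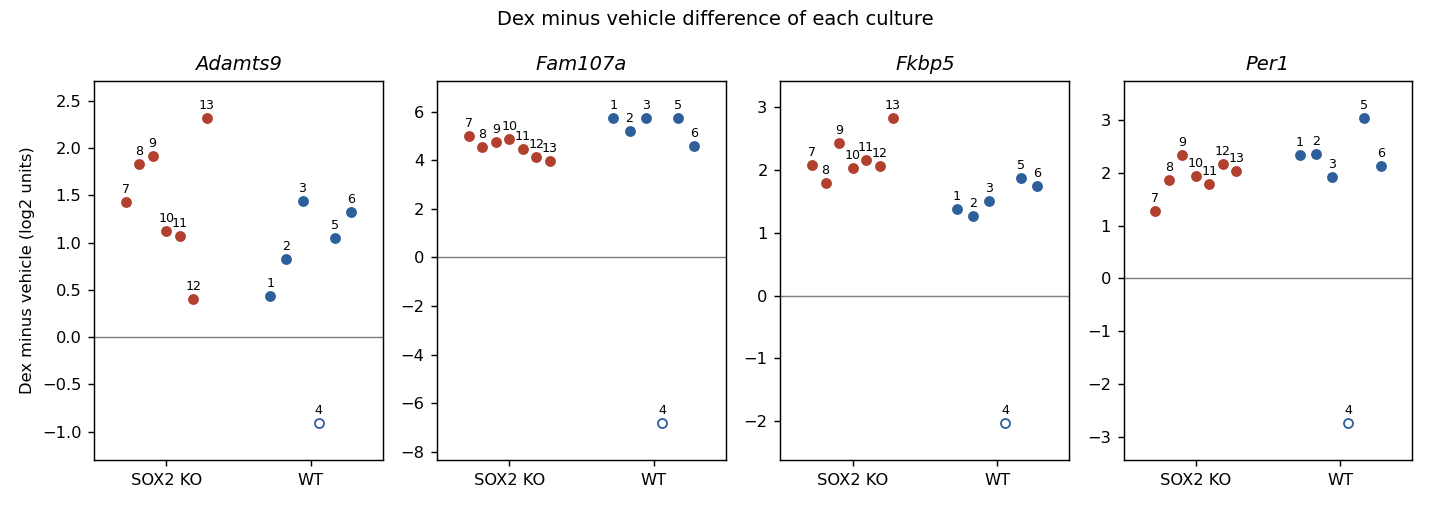
Dex minus vehicle difference of each culture (y axis, log2 units) for Adamts9, Fam107a, Fkbp5 and Per1 in SOX2 KO and WT cultures. Each point is 1 culture with its number, and the open circle is WT culture 4, which lies below 0 in all 4 panels while every other culture lies above 0.

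The Dex effects of the genotypes on Adamts9 were compared directly. The difference, SOX2 KO minus WT, was 0.75 ± 0.41 log2 units (SE) with a 95% interval of -0.09 to 1.58. In the paired fit it was 0.43 ± 0.30, with an interval of -0.21 to 1.06. Neither passed the threshold, and none of the 9 genes did, beside 0% of all genes. A larger response in SOX2 KO was thus not shown, and the intervals leave room for one of up to 1.06 log2 units without culture 4.

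In vehicle alone Adamts9 was lower in SOX2 KO, at 9.38 to 10.00 over 7 arrays, than in WT, at 10.09 to 10.96 over 6 arrays, with no overlap. Over all genes, 0.359% lay lower in SOX2 KO without overlap. The log2 fold change was -0.96 ± 0.29 with an adjusted p of 0.19 in the 4-group limma fit, so it did not pass the threshold. Among the alternatives, it passed with array weights, at an adjusted p of 0.0109 (limma), where 1.94% of all genes passed. It also passed when the vehicle arrays were fitted alone, at 0.0176 (limma), where 0.574% did. Within the 3 array clusters the difference was -0.81, -1.24 and -0.85, the second of them against WT culture 4 alone. Without culture 4 the vehicle value was -0.91 ± 0.27 and did not pass, again with no overlap, as for 0.554% of all genes. In Dex the log2 fold change was -0.21 ± 0.29 over all arrays and -0.48 ± 0.27 without culture 4, with adjusted p-values of 0.94 and 0.66 (limma). The Dex groups overlapped both ways, with 3 of 7 SOX2 KO arrays below the lowest WT array once culture 4 was dropped. Ordered by mean, the level was highest in WT Dex, then SOX2 KO Dex, then WT vehicle, and lowest in SOX2 KO vehicle. Only the last step of this order separated every array of one group from every array of the next.

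The promoter of Adamts9 is shown because it is the Dex-raised gene, and that of Adamts12 because its level differed most clearly by genotype. Both are RefSeq windows of 300 bases around a listed start site, on GRCm38.p6, printed 5′ to 3′ on the gene's strand. The Adamts9 window is chr6:92943485-92943784 on the minus strand, with 70.0% G and C. It lies inside the gene's annotated span, chr6:92772699-92944450, so it does not cover the outermost start of the gene. The Adamts12 window is chr15:11064523-11064822 on the plus strand, with 62.0% G and C.
Adamts9 promoter: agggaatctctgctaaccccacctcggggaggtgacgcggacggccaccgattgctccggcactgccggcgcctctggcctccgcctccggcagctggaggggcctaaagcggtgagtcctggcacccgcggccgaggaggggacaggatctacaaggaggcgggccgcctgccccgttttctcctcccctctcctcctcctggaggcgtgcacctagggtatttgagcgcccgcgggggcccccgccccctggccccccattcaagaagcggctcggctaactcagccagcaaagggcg
Adamts12 promoter: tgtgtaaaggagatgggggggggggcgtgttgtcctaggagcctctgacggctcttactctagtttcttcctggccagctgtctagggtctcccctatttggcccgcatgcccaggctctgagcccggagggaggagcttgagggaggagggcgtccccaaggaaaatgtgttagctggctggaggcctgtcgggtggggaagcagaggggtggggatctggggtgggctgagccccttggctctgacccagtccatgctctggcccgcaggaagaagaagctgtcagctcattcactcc
No letters are in capitals because neither window holds a motif that was searched. The search covered both strands for the palindromic glucocorticoid response element, which is AGAACA, 3 bases of any kind and the reverse complement of AGAACA, the single site AGAACA, and the SOX core letters ACAAAG and ACAATG. The table holds a window for 5 of the 9 genes, Adamts1, Adamts3, Adamts9, Adamts12 and Adamts20. Those of Adamts3 and Adamts20 also lie inside the annotated span of their gene. The only match among them was ACAAAG in Adamts1, 217 bases before the start. Over 32851 promoters of this length, 0.01% hold the full element, 18.97% AGAACA, 18.71% ACAAAG and 12.57% ACAATG. These are descriptions of the letters in these windows.

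SOX2 KO cultures had more Adamts12 than WT cultures, and it was the only one of the 9 genes past the threshold between genotypes in the 4-group fit. Adamts12 encodes a protease close to ADAMTS7 that cuts cartilage oligomeric matrix protein. Over all genes, 0.564% passed between genotypes in Dex and 0.559% in vehicle. In Dex 36 genes were higher and 74 lower, a split that became 77 and 94 with quantile normalization and 67 and 85 with median centring. The median over the 9 was -0.21 in Dex and -0.06 in vehicle, beside -0.06 and -0.03 over all genes. Both comparisons use the same 13 cultures and are not independent of each other.

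With Dex, Adamts12 stood at 9.43, 9.54, 9.67, 10.56, 8.82, 10.54 and 9.03 in SOX2 KO cultures 7 to 13, against 7.82, 7.58, 8.13, 8.54, 7.91 and 8.10 in WT cultures 1 to 6. Every SOX2 KO array lay above every WT array, which held in the higher direction for 0.19% of all genes. With vehicle it stood at 9.76, 9.18, 8.45, 10.11, 8.81, 9.12 and 8.87 in SOX2 KO, against 7.74, 7.47, 7.85, 8.61, 7.98 and 7.98 in WT. Here 6 of 7 SOX2 KO arrays lay above the highest WT array, which was culture 4, and all 7 lay above the other 5, which held in the higher direction for 0.251% of all genes.

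The Adamts12 log2 fold change was 1.64 ± 0.28 in Dex, with group means of 9.66 ± 0.68 and 8.01 ± 0.33 (SD, n = 7 SOX2 KO and 6 WT) and an adjusted p of 0.0015 (limma). In vehicle it was 1.25 ± 0.28, with means of 9.19 ± 0.57 and 7.94 ± 0.38 and an adjusted p of 0.024. Leaving out culture 4 gave 1.75 in Dex and 1.38 in vehicle, both past the threshold, where 0.554% and 0.523% of all genes passed. Within the 3 array clusters the difference was 1.64, 2.01 and 1.17 in Dex and 1.78, 1.01 and 0.73 in vehicle. In the second cluster WT culture 4 alone stood for WT. The vehicle call was lost when 1 of cultures 1, 2, 3, 5, 7 or 8 was left out of the 4-group fit, with adjusted p-values from 0.0518 to 0.0964. It held in the 4-group fit without any 1 of the others, and the Dex call held without any 1 culture.

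**Figure D3:**
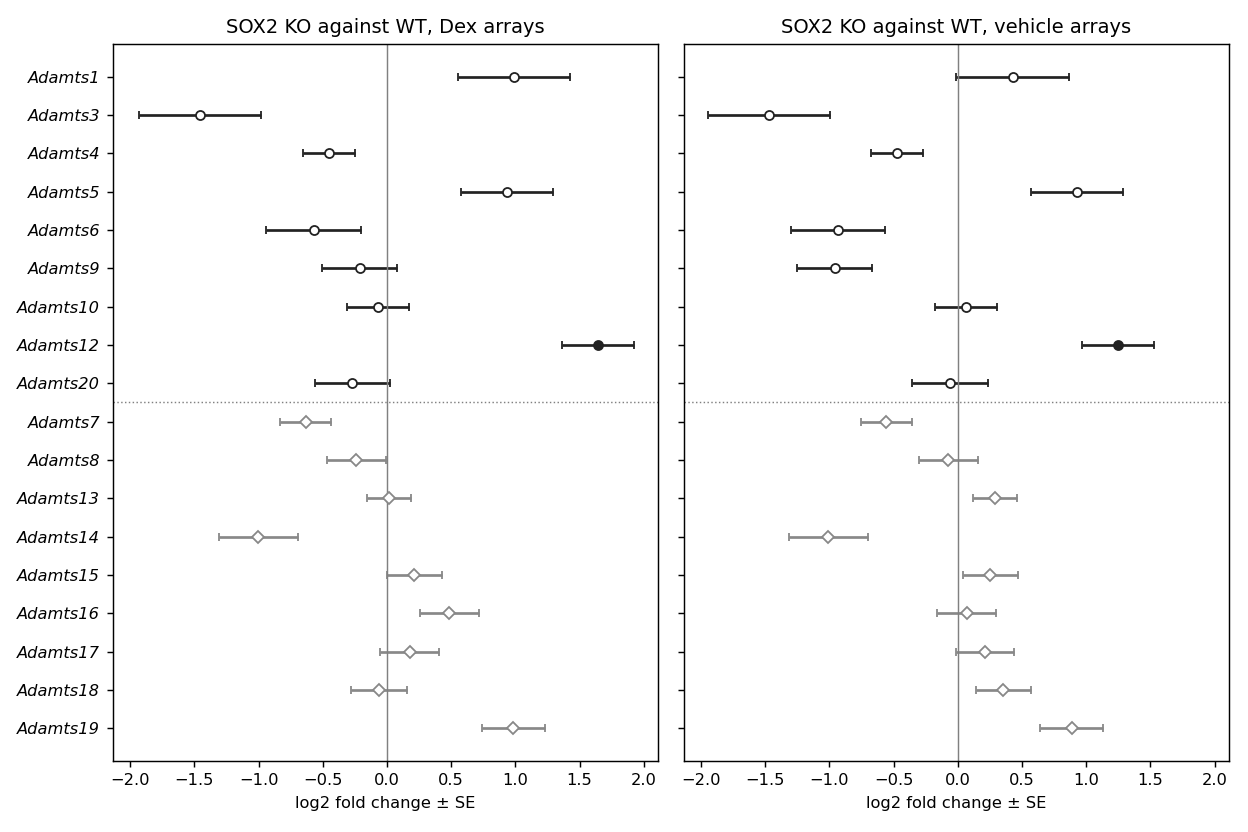
SOX2 KO against WT log2 fold change ± SE (x axis) of the 9 ADAMTS genes (circles, above the dotted line) and the other 9 measured ADAMTS genes (diamonds, below it) in Dex and in vehicle arrays, from the 4-group fit. Filled symbols passed the threshold, which only Adamts12 did, at 1.64 in Dex and 1.25 in vehicle.

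In the 4-group fit Dex moved Adamts12 by 0.47 ± 0.27 in SOX2 KO, higher in 6 of 7 cultures, and by 0.075 ± 0.29 in WT, higher in 4 of 6. The WT value was 0.10 ± 0.31 without culture 4. In the paired fit the 95% intervals were 0.09 to 0.85 in SOX2 KO and -0.34 to 0.55 in WT. None passed the threshold. The SOX2 KO differences were uneven, between -0.33 and 1.42, with cultures 9 and 12 highest at 1.22 and 1.42.

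The other proteoglycan-cutting members were Adamts1, Adamts4, Adamts5 and Adamts20. Adamts5 and Adamts4 encode the principal aggrecan-cutting enzymes of cartilage, ADAMTS1 cuts versican and aggrecan, and ADAMTS20 is the closest relative of ADAMTS9 and cuts versican. None of the 4 passed the threshold in any of the 5 contrasts of the 4-group fit.

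Adamts5 was lowest at 5.13, with a median of 5.86 and a highest value of 7.30, in SOX2 KO Dex arrays, against 4.03, 5.25 and 5.66 in WT Dex arrays. In vehicle the lowest, median and highest were 4.70, 6.13 and 6.93 in SOX2 KO, against 4.09, 5.25 and 5.51 in WT. In each treatment 4 of 7 SOX2 KO arrays were above the highest WT array, and 5 of 7 without culture 4. The log2 fold change was 0.93 ± 0.36 in both, with adjusted p-values of 0.44 in Dex and 0.54 in vehicle (limma). Without culture 4 it was 1.06 ± 0.38 in Dex and 1.02 ± 0.38 in vehicle, with adjusted p-values of 0.35 and 0.44. The difference was of one sign in the 3 array clusters, at 0.68, 0.98 and 1.20 in Dex and 0.90, 1.10 and 0.99 in vehicle. The second cluster had WT culture 4 as its only WT culture. With array cluster as a covariate Adamts5 passed, at adjusted p-values of 0.0286 in Dex and 0.0305 in vehicle (limma). There 2.04% and 1.93% of all genes passed, beside 0.564% and 0.559% in the 4-group fit. The clusters were drawn from these same values, so this pass is no independent support. Dex had no common direction on it, with differences from -1.39 to 1.16 in SOX2 KO and from -0.26 to 0.15 in WT, or to 0.09 without culture 4.

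Adamts1, which lies next to Adamts5 on chromosome 16, had mean Dex effects of opposite sign in the genotypes. It was higher with Dex in SOX2 KO cultures 7, 8, 10, 12 and 13, by 0.20 to 0.94, and lower in cultures 9 and 11, by -0.11 and -0.30. In WT it was lower with Dex in cultures 1, 2, 3, 5 and 6, by -0.14 to -0.67, and higher, by 0.40, in culture 4 alone. The log2 fold changes were 0.30 ± 0.42 in SOX2 KO and -0.26 ± 0.45 in WT. Without culture 4 the WT value was -0.40, with a paired-fit interval of -0.76 to -0.03 and an adjusted p of 0.99 (limma). The difference between them was 0.56 ± 0.62 over all arrays. In the paired fit it was 0.70 ± 0.23, with a 95% interval of 0.22 to 1.17, an unadjusted p of 0.0071 and an adjusted p of 1 (limma). It did not pass. Between genotypes Adamts1 was 0.99 ± 0.44 higher in SOX2 KO in Dex and 0.43 ± 0.44 in vehicle, and 0.81 ± 0.42 and 0.11 ± 0.42 without culture 4, none past the threshold. WT levels spread widely, from 8.11 to 11.58.

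Adamts4 had genotype log2 fold changes of -0.45 ± 0.20 in Dex and -0.47 ± 0.20 in vehicle, with adjusted p-values of 0.59 and 0.77 (limma). Without culture 4 they were -0.43 ± 0.22 and -0.39 ± 0.22. In each treatment 2 of 7 SOX2 KO arrays lay below the lowest WT array, with or without culture 4. Its Dex effects were 0.07 ± 0.20 in SOX2 KO and 0.045 ± 0.21 in WT, or 0.10 ± 0.23 without culture 4, with both signs among the cultures of each genotype. Adamts20 differed between genotypes by -0.27 ± 0.29 in Dex and -0.06 ± 0.29 in vehicle, and by -0.16 ± 0.30 and 0.09 ± 0.30 without culture 4. Its Dex effects were -0.09 ± 0.28 in SOX2 KO and 0.12 ± 0.30 in WT, where the value without culture 4 was 0.15 ± 0.32, and levels ran from 5.49 to 7.28 over the 26 arrays. For both genes the 4 groups overlapped.

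Adamts3 encodes the procollagen-type member that also cuts reelin in mouse brain and, with CCBE1, activates VEGF-C. It stood at 5.88, 6.35, 5.81, 5.68, 5.07, 4.89 and 6.03 in SOX2 KO Dex arrays, against 7.94, 8.81, 7.27, 6.37, 5.87 and 6.53 in WT Dex arrays. In vehicle it stood at 6.69, 5.87, 6.15, 5.64, 5.49, 5.54 and 5.63 in SOX2 KO, against 8.81, 8.85, 7.70, 5.69, 5.36 and 7.56 in WT. WT cultures 1, 2 and 3 were above every SOX2 KO array in both treatments, while WT culture 5 was within the SOX2 KO range in Dex and below it in vehicle. WT culture 4 was within that range in vehicle and just above it in Dex. WT cultures 1, 2 and 3 are in the first array cluster, which had the higher upper quartiles. SOX2 KO cultures 7 and 8 share that cluster, with culture means of 6.11 to 6.28. WT culture 6, in the third cluster, was also above every SOX2 KO array of the same treatment. The part of the array clusters in these levels was not tested. The log2 fold changes of -1.46 ± 0.47 in Dex and -1.47 ± 0.47 in vehicle had adjusted p-values of 0.25 and 0.26 (limma), so neither passed. Without culture 4 they were -1.61 ± 0.46 and -1.80 ± 0.46, with adjusted p-values of 0.16 and 0.09. The vehicle value passed, at -1.86 with an adjusted p of 0.0432 (limma), when culture 5 was left out. That culture is the one that goes against the difference. In that fit 23 of all genes were higher and 62 lower past the threshold. With array weights, which count uneven arrays less, Adamts3 passed at -1.95 in Dex and -2.20 in vehicle, with adjusted p-values of 0.0084 and 0.0033 (limma). There 2.88% and 1.94% of all genes passed, beside 0.564% and 0.559% in the 4-group fit. The sizes were not alike across the array clusters, at -1.89, -1.09 and -0.56 in Dex and -2.17, -0.10 and -0.70 in vehicle. In the second cluster the comparison was with WT culture 4 alone. Its Dex effect was -0.19 ± 0.46 in SOX2 KO and -0.20 ± 0.49 in WT. The WT value was -0.37 ± 0.50 without culture 4, where 4 of 5 cultures were lower, and none of these passed.

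Adamts6 and Adamts10 encode closely related proteases that act on fibrillin microfibrils. Adamts6 was lower with Dex in 5 of 7 SOX2 KO cultures, with differences from -1.13 to 0.32, and in 5 of 5 WT cultures without culture 4, by -0.03 to -1.64. Over all genes, 4.96% were lower in those 5 WT cultures. Culture 4, whose labels are in doubt, was at -0.13, and 2.11% of all genes were lower in all 6 as labelled. The log2 fold change was -0.36 ± 0.35 in SOX2 KO and -0.72 ± 0.38 in WT, and in WT it was -0.84 ± 0.23 in the paired fit, at an adjusted p of 0.42 (limma). Between genotypes it was -0.57 ± 0.37 in Dex and -0.93 ± 0.37 in vehicle, where 4 of 7 SOX2 KO arrays lay below the lowest WT array. Without culture 4 it was -0.64 ± 0.38 in Dex and -1.12 ± 0.38 in vehicle, where 5 of 7 lay below. None of these passed.

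Adamts10 was lower with Dex in 4 of 7 SOX2 KO cultures, of which culture 12 stood apart at -1.99, and in 5 of 5 WT cultures without culture 4, by -0.03 to -0.53, beside the same 4.96% of all genes. Culture 4 was at -0.38 as labelled. The log2 fold changes were -0.42 ± 0.23 in SOX2 KO and -0.29 ± 0.25 in WT, or -0.28 ± 0.28 without culture 4, and none passed. Between genotypes it was -0.07 ± 0.24 in Dex and 0.06 ± 0.24 in vehicle, and -0.05 ± 0.26 and 0.10 ± 0.26 without culture 4. The 4-group fit intervals of the genotype differences in Dex effect were wide for all of these members, for example -0.83 to 0.57 for Adamts10 and -0.70 to 1.43 for Adamts6. In the paired fit these 2 intervals were -0.87 to 0.58 and -0.16 to 1.13.

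**Figure D4:**
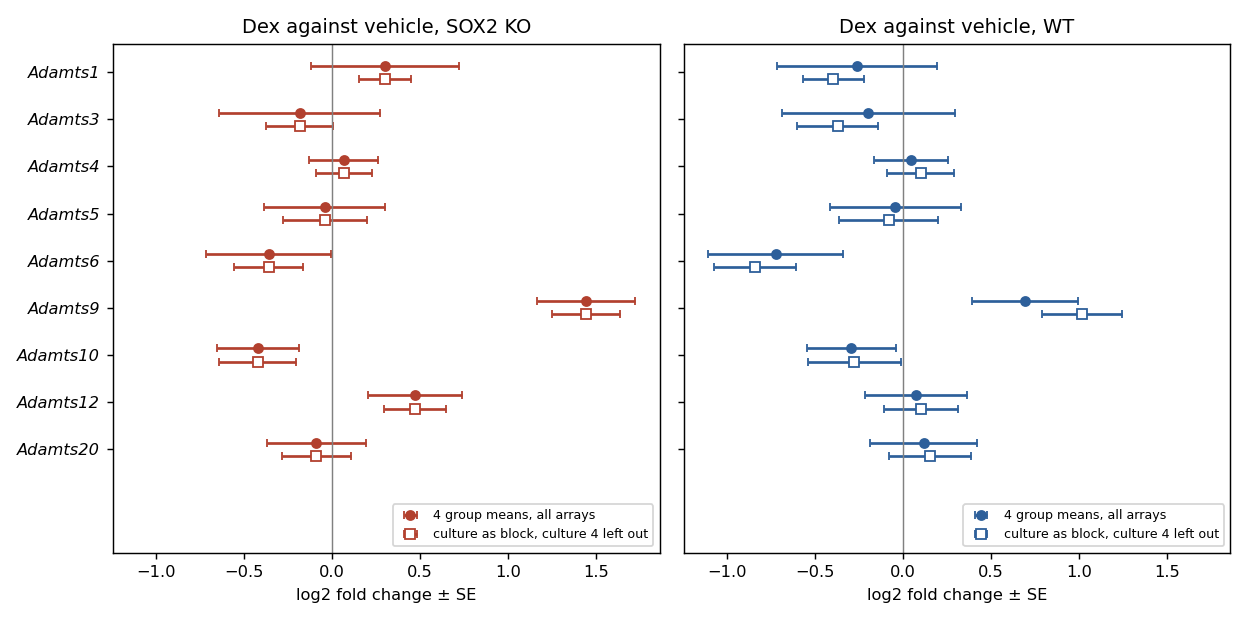
Dex against vehicle log2 fold change ± SE (x axis) of the 9 ADAMTS genes in SOX2 KO and in WT cultures. Filled circles are the fit of 4 group means on all arrays, and open squares the paired fit. Adamts9 lies farthest right in both genotypes, at 1.44 in SOX2 KO and at 0.695 or 1.02 in WT.

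Of the other 9 ADAMTS genes, 0 passed in any of the 5 contrasts in the 4-group limma fit. The closest to the threshold was Adamts19, 0.98 ± 0.24 higher in SOX2 KO in Dex (adjusted p = 0.057) and 0.89 ± 0.24 in vehicle (adjusted p = 0.12), with 6 of 7 SOX2 KO arrays above the highest WT array in each. Without culture 4 it was 0.88 ± 0.23 and 0.71 ± 0.23, with adjusted p-values of 0.094 and 0.31 (limma). Adamts14, a procollagen-trimming relative of Adamts3, was -1.001 ± 0.31 in Dex and -1.01 ± 0.31 in vehicle, and -0.97 ± 0.33 and -0.99 ± 0.33 without culture 4, and 5 of 7 SOX2 KO arrays lay below the lowest WT array in each. Adamts7, the nearest relative of Adamts12, was -0.635 ± 0.20 in Dex and -0.56 ± 0.20 in vehicle, or -0.62 ± 0.21 and -0.59 ± 0.21 without culture 4, opposite in sign to Adamts12 and not past the threshold. The median of the other 9 was 0.01 in Dex and 0.21 in vehicle between genotypes, and -0.03 for Dex in SOX2 KO. Of the 7 ADAMTS-like and related genes, which lack the protease domain, 0 passed in the same fit.

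Among 10 genes of the proteoglycan substrates and their partners, 1 passed between genotypes in Dex and 0 in vehicle. The shares of all genes that passed were 0.564% and 0.559%. The gene that passed was Vcan, versican, the shared substrate of several of these enzymes. Vcan stood at 13.47, 13.54, 13.22, 13.35, 13.27, 13.18 and 13.91 in SOX2 KO Dex arrays, against 13.02, 13.12, 12.63, 11.52, 12.41 and 11.98 in WT Dex arrays, with no overlap. Higher levels without overlap in Dex held for 0.19% of all genes. In vehicle it ran from 12.50 to 13.75 in SOX2 KO, against 11.64 to 12.60 in WT, and 6 of 7 SOX2 KO arrays were above the highest WT array. The log2 fold change was 0.97 ± 0.24 in Dex, with an adjusted p that rounds to 0.05 and lies just under the threshold, and 0.93 ± 0.24 in vehicle, with an adjusted p of 0.067 (limma). Without culture 4 the Dex value was 0.79 ± 0.23 with an adjusted p of 0.17, no longer past the threshold. The other cultures were not left out in turn for Vcan. The matrix glycoprotein tenascin C (Tnc) was 0.90 ± 0.39 higher in SOX2 KO in Dex and 1.25 ± 0.39 in vehicle, or 0.76 ± 0.31 and 0.78 ± 0.31 without culture 4, not past the threshold. Brevican (Bcan) and neurocan (Ncan) had Dex effects of -0.57 ± 0.27 and -0.47 ± 0.22 in SOX2 KO, which did not pass. The Bcan differences had a median of -0.20 and a lowest value of -1.96. Tnc was lower with Dex in 7 of 7 SOX2 KO cultures, at a mean of -0.63, beside 1.49% of all genes. Without culture 4 it was lower in 5 of 5 WT cultures, beside 4.96%. Vcan was higher with Dex in 6 of 7 SOX2 KO cultures and in the same 5 WT cultures, beside 5.03% for the latter.

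**Figure D5:**
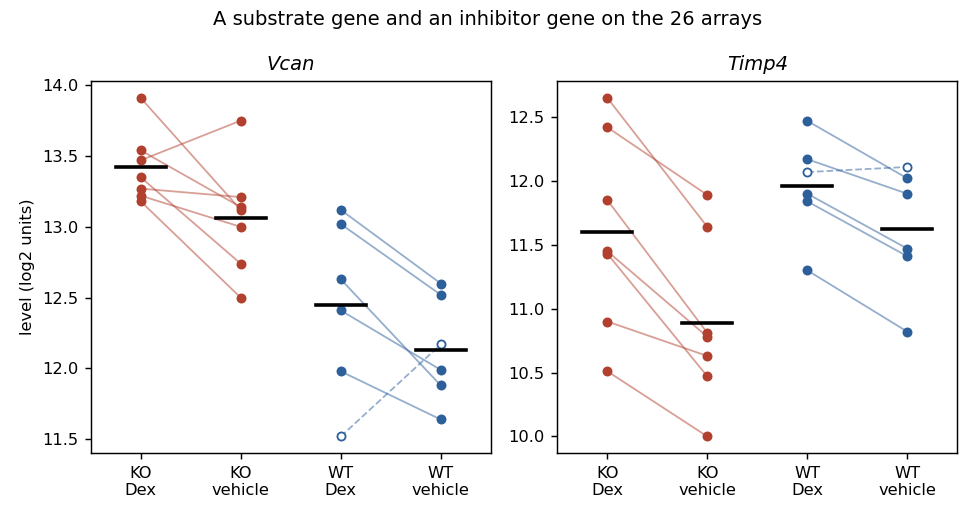
Levels (y axis, log2 units, with a scale of its own in each panel) of Vcan, a substrate, and Timp4, an inhibitor, in SOX2 KO Dex, SOX2 KO vehicle, WT Dex and WT vehicle arrays. Lines join the arrays of 1 culture, open circles mark WT culture 4 and black bars are group means. The 7 SOX2 KO Dex values of Vcan, 13.18 to 13.91, lie above the 6 WT Dex values, and Timp4 is higher with Dex in all 7 SOX2 KO cultures.

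Among 7 inhibitors and clearance receptors, 0 passed in the 4-group fit. Timp4, a tissue inhibitor of metalloproteinases, was higher with Dex in all 7 SOX2 KO cultures, by 0.27 to 1.04, and in 5 of 6 WT cultures, by 0.27 to 0.48, with culture 4 at -0.04. The same held for 1.01% of all genes in SOX2 KO, and for 5.03% in those 5 WT cultures. In the paired fit Timp4 passed in SOX2 KO at 0.71 ± 0.12 with an adjusted p of 0.013, where 0.251% of all genes passed. In WT it was 0.41 ± 0.14 with an adjusted p of 0.83 (limma). Lrp1, the receptor that clears several ADAMTS enzymes from the surroundings of the cell, was 0.84 ± 0.26 higher in SOX2 KO in Dex and 0.87 ± 0.26 in vehicle, or 0.85 ± 0.28 and 0.84 ± 0.28 without culture 4, not past the threshold. Has2, a hyaluronan synthase, was lower with Dex in all 7 SOX2 KO cultures, by -0.38 to -1.45, as were 1.49% of all genes. Its log2 fold change was -0.81 ± 0.23, with an adjusted p of 0.82 in the 4-group fit and 0.081 in the paired fit (limma).

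None of the remaining lists had a member past the threshold in the 4-group limma fit or in the paired one. They held 7 measured hyaluronan genes, 6 procollagens, 8 fibrillin microfibril genes, 4 of the reelin pathway, 3 of the VEGF-C axis and 6 that activate or help secrete ADAMTS enzymes. Their medians for Dex in SOX2 KO were -0.19, -0.01, -0.16, -0.02, 0.11 and 0.01, beside -0.02 over all genes. Between genotypes in vehicle they were 0.31, -0.03, -0.02, -0.10, -0.18 and 0.25, beside -0.03 over all genes. In this last list Sdc4, a membrane proteoglycan that binds ADAMTS enzymes, was 0.56 ± 0.28 in Dex and 0.64 ± 0.28 in vehicle between genotypes, or 0.34 ± 0.27 and 0.69 ± 0.27 without culture 4. Furin, the activating convertase, had Dex effects of -0.08 ± 0.23 in SOX2 KO and 0.34 ± 0.24 in WT, or 0.33 without culture 4.

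The genes whose pattern was most like that of a member were ranked by Pearson's r over the 13 cultures. The cultures share genotype and array cluster, so these are descriptions of the pattern only. For the Dex minus vehicle differences of Adamts9 they were Zbtb16, Xpr1 and L3mbtl3, at r of 0.887, 0.884 and 0.867 with Spearman's rho of 0.831, 0.768 and 0.729. Without culture 4 the r values were 0.745, 0.723 and 0.749, lower for all 3 genes. For its mean level they were Stc2, Fzd5 and Smco4, at 0.963, 0.937 and 0.908. For the mean level of Adamts12 they were Sntb2, Runx1 and Chrm3, at 0.975, 0.937 and 0.936, and at 0.979, 0.951 and 0.936 without culture 4. For its differences they were Pex2, Ankrd44 and Bak1, at 0.921, 0.913 and 0.896, with rho of 0.814, 0.690 and 0.550.

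The nearest patterns of the other members were of like strength. For mean level the first was Nfkbiz for Adamts1 at 0.953, Fam135b for Adamts3 at 0.941, Six4 for Adamts5 at 0.919, Pnp2 for Adamts6 at 0.976 and Cyp4f40 for Adamts20 at 0.963. For Adamts4 and Adamts10 the highest r of a gene with a full name was lower, Crx at 0.855 and Gtpbp2 at 0.868. For the differences the first was Il15ra for Adamts1 at 0.882, Thbs3 for Adamts3 at 0.882, Vmac for Adamts5 at 0.879 and Egr3 for Adamts6 at 0.877. For Adamts10 it was H3c13 at 0.937, where culture 12 is the far point of the differences.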

How the data were processed

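Biotin-labelled cRNA from each culture was hybridised to 1 one-colour array, per the labels' protocols. The authors deposited 1 table of values that were taken here as log2, from their range of 2.22 to 19.81, and the authors' normalization and software are not given in the sources used here. Of 22206 transcript clusters, 19572 carry 1 gene symbol and 2634 carry none and stayed out. All 19572 matched the reference by Entrez identifier. For the 55 genes with several transcript clusters the one of highest mean was used, which left 19505 genes. No column was left unmapped.

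limma 3.58.1 (R 4.3.3) fitted 1 mean for each of the 4 groups to all 26 arrays and moderated the variances by empirical Bayes. P-values were adjusted by Benjamini-Hochberg across the 19505 genes, with a threshold of 0.05 and no minimum fold. Fold changes carry moderated SEs, and levels carry SDs. The number of arrays limits the precision. Arrays of the same number come from the same animal's culture, and their profiles correlated at 0.31 to 0.73 after removal of group means, so they were treated as pairs in the blocked fits. The alternatives were that block, leaving out culture 4 or each culture in turn, array cluster as a covariate, quantile normalization, median centring, removing the lowest 25% of genes by mean, fitting the compared groups alone, array weights, a prior that is trended and robust, and averaging transcript clusters. Leaving out each culture from the blocked and the cluster fits was chosen after seeing the data. The fit was tested on simulated data with independent arrays, which held no culture pairs and no array clusters. It recovered 50% to 59% of changes of 1 log2 unit and 97% to 98% of changes of 2, with 4 to 10 false calls. Changes of about 1 log2 unit can therefore be missed.

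The members and lists were chosen with earlier results of these data known. The text names all 10 members, the list genes past the threshold, among the closest to it those described, the 3 genes of highest r for Adamts9 and Adamts12, the first for the other members, and genes that check the labels. Furin was named for its known role after its values were seen. Symbols of predicted loci were not named. Promoter sequences are from RefSeq, GRCm38.p6.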

Additional observations from a re-analysis of the deposited data

Results flagged for a closer look

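For the 9 genes, 54 sets of 6 or 7 values were examined, 36 sets of array levels and 18 sets of Dex minus vehicle differences. In 4 of the sets of levels 1 array lay far from the rest, and chance alone gives about 1 in 20. Adamts9 was 9.96 on the Dex array of SOX2 KO culture 12, against 11.00 to 11.75 on the other SOX2 KO Dex arrays. On the same array Adamts10 was 5.66, against 6.89 to 7.80 on the others. Adamts9 was 10.09 on the vehicle array of WT culture 5, against 10.64 to 10.96 on the other WT vehicle arrays. Adamts4 was 5.49 on the vehicle array of SOX2 KO culture 9, against 6.08 to 6.50 on the other SOX2 KO vehicle arrays. Without culture 12 the Dex effect on Adamts9 in SOX2 KO was 1.62 ± 0.27, with an adjusted p of 0.0077 (limma).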

How the results depend on the processing

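Single cultures were left out of the 4-group fit, of the fit blocked on culture without culture 4 and of the fit with array cluster as a covariate, and the ranges of counts cover all 3 fits. The number of members past the threshold was 1 for Dex in SOX2 KO under every alternative except single cultures left out, which gave 0 to 1. For Dex in WT it was 0, and 0 to 1 with single cultures left out. For SOX2 KO against WT in vehicle it was 1, and became 2 with array cluster as a covariate, 3 with array weights, 2 with only the compared groups, and 0 to 3 with single cultures left out. In Dex it was 1, and became 2 with array cluster as a covariate, 2 with array weights, and 1 to 2 with single cultures left out. For SOX2 KO minus WT in Dex effect it stayed 0 (limma), with 140 of all genes at an unadjusted p under 0.05. With the replicate block the count for Dex in SOX2 KO stayed 1, with a log2 fold change of 1.44 ± 0.25 for Adamts9 and an adjusted p of 0.027, while the count over all genes was 14 with the block, 49 with the block and without culture 4 and 10 without either. For Dex in SOX2 KO it was also 16 without culture 4, 18 with quantile normalization, 28 with array weights and 25 when array cluster was a covariate, and for Dex in WT it was 0, but 7 without culture 4, 33 when that was combined with the block and 15 with array weights. Between genotypes in Dex, 36 genes were higher and 74 lower in the 4-group fit, against 187 and 210 when array cluster was a covariate, 117 and 444 with array weights, 77 and 94 with quantile normalization and 25 and 47 with only the compared groups. In vehicle 37 were higher and 72 lower, against 188 and 188, 83 and 295, and 71 and 98 under the first 3 of these and 29 and 83 with only the compared groups. As shares, 0.574% of all genes passed in vehicle with only the compared groups, 1.94% with array weights, and 2.88% in Dex with array weights. With single cultures left out of the 4-group fit, the counts over all genes were 3 to 16 for Dex in SOX2 KO, 0 to 7 for Dex in WT, 69 to 160 between genotypes in Dex and 75 to 143 in vehicle. In the blocked fit they were 37 to 66 and 19 to 58 for Dex in SOX2 KO and in WT. When array cluster was a covariate they were 216 to 434 between genotypes in Dex and 210 to 471 in vehicle. With array weights Adamts9 was -0.96 in vehicle with an adjusted p of 0.0109, and with only the compared groups its adjusted p was 0.0176. The cause of these changes was not tested.

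The sign turned in values near 0 that passed nowhere. With quantile normalization Adamts5 for Dex in SOX2 KO was 0.0075, Adamts4 for Dex in WT was -0.0001 and the difference for Adamts3 was -0.028. With array weights Adamts5 for Dex in WT was 0.0019, Adamts9 for SOX2 KO against WT in Dex was 0.001, and the differences for Adamts4 and Adamts5 were -0.18 and -0.029. Without culture 4 Adamts20 for SOX2 KO against WT in vehicle was 0.087 and the difference for Adamts4 was -0.034, also with the replicate block. With median centring Adamts10 for SOX2 KO against WT in Dex was 0.011. With single cultures left out of the 4-group fit, Adamts10 ran from -0.20 to 0.16 between genotypes in Dex, from -0.0049 to 0.15 in vehicle and from -0.26 to 0.13 for the difference. Adamts20 ran from -0.28 to 0.018 for Dex in SOX2 KO and from -0.22 to 0.10 between genotypes in vehicle. Adamts3 ran from -0.16 to 0.19 for the difference. Adamts4 ran from -0.05 to 0.13 for Dex in SOX2 KO, from -0.12 to 0.15 for Dex in WT and from -0.095 to 0.19 for the difference. Adamts5 ran from -0.24 to 0.18 for Dex in SOX2 KO and from -0.20 to 0.23 for the difference.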
